A study of Mus musculus with 4 samples.

Results

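Imprinted genes are transcribed mainly from the copy inherited from one parent. Of 37062 genes on the array, 40 formed the set described here. They were taken by name from a list of known imprinted genes, lie in 17 loci and were read by 87 of the 56605 probes; 8 of them make noncoding RNA. The rule used no measured value, but the genes and the marker lists used below were chosen with earlier results of these data known.

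The genes were measured in the hippocampus of wild-type mice (WT) and of mice with 1 knockout copy of Rp58 (hetero-KO), at 4 months and at 18 months of age. Rp58, now called Zbtb18, is a zinc finger protein that represses transcription. Each of the 4 groups had 1 array, hybridised with RNA mixed from 3 samples, so no group had a replicate array. The older groups carry an age label of 18 months but a written description of 12 to 18 months, and neither the sex of the mice nor the part of Rp58 that was removed is given in the sources used here.

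Imprinting is set by DNA methylation that differs between the egg and the sperm and is kept through life at control regions shared by neighbouring genes. Many loci pair a protein gene expressed from one parental copy with a noncoding RNA expressed from the other. In the brain, several of these genes act in growth, hormone secretion and neuronal development, and some, such as Ube3a and Grb10, are imprinted differently in neurons and in other cells.

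Values are spot signals divided by the 75th percentile of the signal on the same array, and are called levels. Differences are on the log2 scale, so that 1 is 2-fold. A gene with several probes was represented by the probe with the highest mean level, and levels are compared only within a probe. A probe was taken as measured where the scanner software put 50% or more of its spots well above background. The scanner software's own error for a difference between a pair of arrays was about 0.20 for most members, and it covers the spot, not the mice. A difference between a pair of arrays has no test, and a gene at least 2-fold apart was counted. Genotype, over both ages, and age, over both genotypes, were tested by limma in a model with both factors, with 1 residual degree of freedom and Benjamini-Hochberg adjustment over 28872 genes. Where 4 levels are given in a row without further words, they are in the order WT and hetero-KO at 4 months, then WT and hetero-KO at 18 months. With 1 array a group, the residual of the model with both factors holds only how far the genotype difference varied between the ages. Equally, it is how far the age difference varied between the genotypes. The fit draws it toward a trend over all genes. The p-values therefore measure neither the spread among pools of the same group nor the spread among mice.

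The 75th percentile lay between 1714 and 2111 on the 4 arrays, and 77.9% to 81.9% of spots were well above background. The 14 hippocampal neuron markers listed were all measured on all 4 arrays. In hetero-KO 11 of them were lower than in WT at 4 months (median −0.27) and 8 at 18 months (median −0.10). Zbtb18 itself differed by −0.20 at 4 months and 0.18 at 18 months between hetero-KO and WT, within the spot error. The pools were not matched in sex: Eif2s3y, a gene of the Y chromosome, stood at 0.673 in the younger WT pool, was below the background limit in the younger hetero-KO pool, and stood at 1.30 and 1.33 in the older pools. Xist, a gene of the X chromosome, stood at 0.164 in the younger WT pool and 0.231 in the younger hetero-KO pool. It was below the background limit in both older pools. Between the ages, sex makeup cannot be told apart from age, nor at 4 months from genotype.

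Of the 40 genes, 37 were measured on all 4 arrays and tested. The other 3 were well above background on no array: Calcr, the calcitonin receptor, Phlda2, which limits placental growth, and Rtl1, a gene derived from a retrotransposon. Of the 87 probes, 75 were measured on all arrays and 8 on none. Taken 1 comparison at a time, most of the 37 genes lay close to 0, though not always the same ones. The share was smaller than that of all genes each time. Within 1.2-fold were 27 of 37 (73.0%) in the genotype comparison at 4 months and 27 at 18 months, against 80.1% and 80.6% of all genes. In the age comparison they were 25 (67.6%) in WT and 21 (56.8%) in hetero-KO, against 77.6% and 74.8%.

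**Figure D1:**
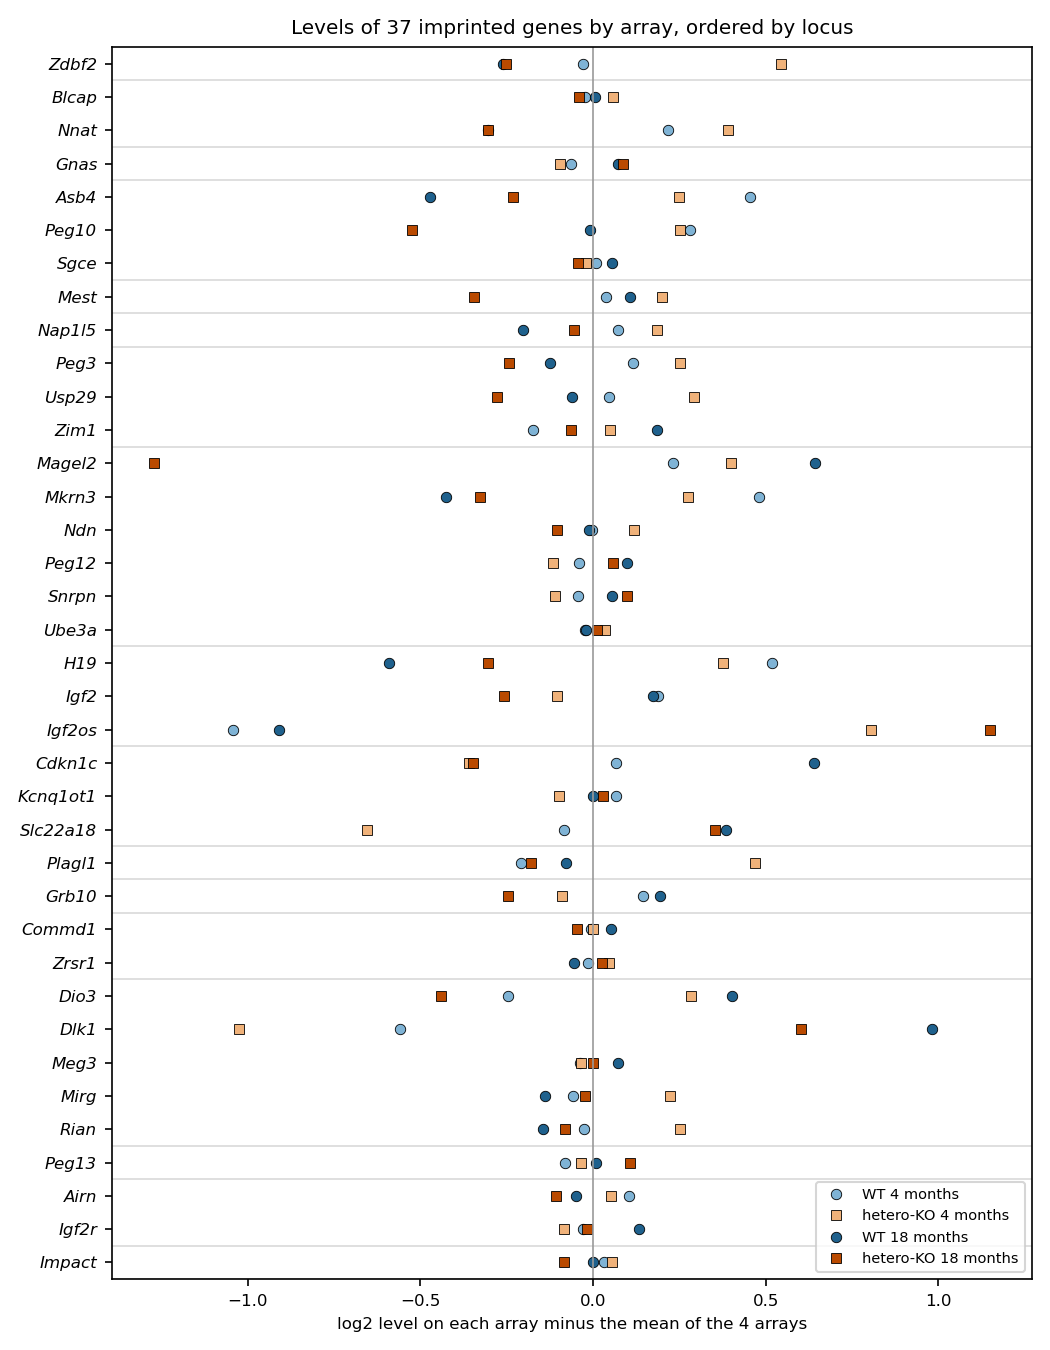
The horizontal axis gives the log2 level on each array minus the mean of the 4 arrays, for the 37 imprinted genes measured on all of them, with grey lines between loci and 1 point an array (circles WT, squares hetero-KO, pale 4 months, dark 18 months). Igf2os separates by genotype, Dlk1 by age, and Magel2 has 1 low point, hetero-KO at 18 months.

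The probes of noncoding RNAs on which the results below turn are shown here, 5′ to 3′, as the array files give them. In the probe of Igf2os the capitals mark a stretch of 9 bases, GGGCGTGGC, that it holds in 2 copies. No other probe among the 56605 holds it more than once, and 2 hold it in 1 copy. H19 is shown as the partner of Igf2, and the RNAs of the Dlk1-Dio3 locus for their small differences. Of the 3 Airn probes, 2 are shown because they differ in size of the age difference.
Igf2os: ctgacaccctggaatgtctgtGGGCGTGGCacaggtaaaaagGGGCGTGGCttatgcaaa
H19: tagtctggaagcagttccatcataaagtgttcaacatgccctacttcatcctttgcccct
Meg3: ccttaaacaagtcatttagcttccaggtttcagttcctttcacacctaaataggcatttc
Rian: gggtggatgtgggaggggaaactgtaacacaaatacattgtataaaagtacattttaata
Mirg: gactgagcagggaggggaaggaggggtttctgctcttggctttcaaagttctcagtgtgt
Airn, at 13008078: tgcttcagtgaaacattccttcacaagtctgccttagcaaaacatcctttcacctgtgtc
Airn, at 12944784: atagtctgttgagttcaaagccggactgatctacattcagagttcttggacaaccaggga

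The largest genotype difference of the set was in the H19-Igf2 locus on chromosome 7. Igf2os, a noncoding RNA of the strand opposite to Igf2 that is expressed from the paternal copy, was read by 1 probe at chr7:149856156-149856215 (mm9, plus strand). At 4 months the level was 0.0850 in WT against 0.306 in hetero-KO, and at 18 months 0.0932 against 0.389. Both hetero-KO arrays lay above both WT arrays. The difference was 1.85 (3.60-fold) at 4 months and 2.06 (4.17-fold) at 18 months, the 62nd highest of 28198 genes and the 18th highest of 27423. In the limma fit over both ages it was 1.95 ± 0.10 (SE) with an adjusted p of 0.0644, which did not pass 0.05. The adjusted p was 0.0182 with another background correction and 0.0456 when only genes measured on all 4 arrays were tested, and ranged from 0.0182 to 0.490 over all alternatives. In the authors' deposited table, whose 18-month columns match no scanner file, the 18-month genotype difference was 0.62, under 2-fold. The age difference of Igf2os was 0.13 in WT and 0.35 in hetero-KO, and of the opposite sign in that table, −0.95 and −2.18.

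The other genes of this locus did not share the Igf2os difference. Igf2, a growth factor made mainly by choroid plexus and meninges in the adult brain, had 4 levels of 1.36, 1.11, 1.34 and 0.996 at its brighter probe, 19.04 kb from that of Igf2os. Its dimmer probe, 16.5 kb away, had 0.378, 0.267, 0.238 and 0.155. Both probes were lower in hetero-KO at both ages, by −0.29 and −0.43 at the brighter and by −0.50 and −0.61 at the dimmer; over both ages the brighter gave −0.36 ± 0.06 (SE; limma adjusted p = 0.231).

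H19, a noncoding RNA expressed from the maternal copy, had levels of 0.0490, 0.0444, 0.0227 and 0.0277. Its genotype differences, −0.14 and 0.28, had opposite signs, and both 18-month arrays lay below both 4-month arrays. The age difference was −1.11 in WT and −0.68 in hetero-KO, and −0.89 ± 0.18 (SE) over both, with a limma adjusted p of 0.0787. With another background correction the age differences of H19 were −0.34 and −0.25. A dimmer H19 probe was measured on 3 of the 4 arrays. Within 200 kb of the Igf2os probe, 12 other probes were measured on all arrays and 0 of them were 2-fold apart between genotypes at either age. A probe of the muscle gene Tnnt3 that was measured on 3 arrays, and so stands outside these 12, had −2.70 at 4 months, with a level of 0.0617 in WT and 0.00952 in hetero-KO; a Tnnt3 probe measured on all 4 had −0.49. The nearest, of the insulin gene Ins2 8.50 kb away, had −0.27 and −0.40.

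**Figure D2:**
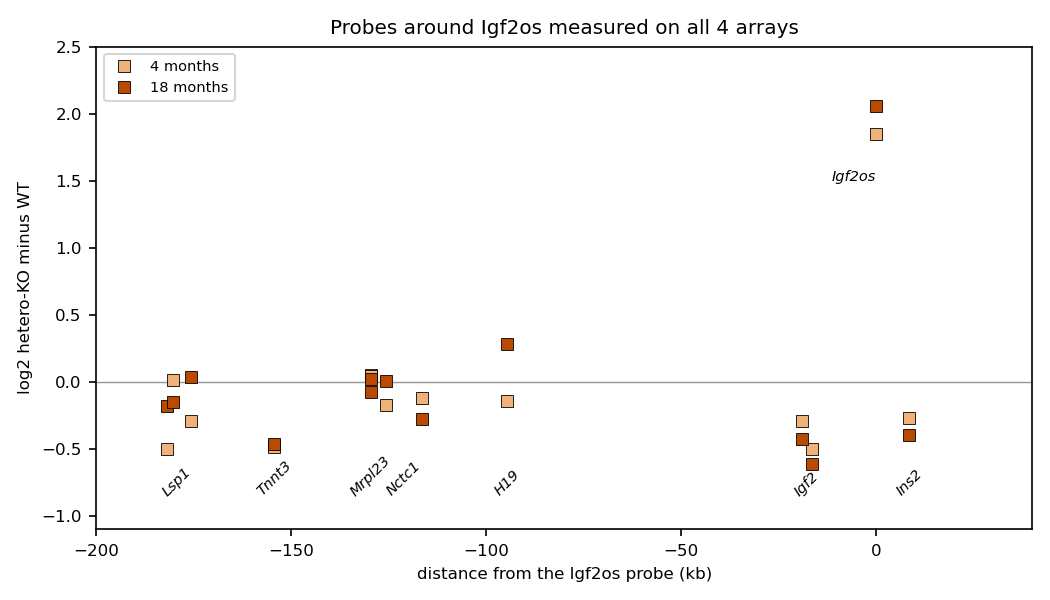
The horizontal axis is the distance in kb from the Igf2os probe along chromosome 7 and the vertical axis log2 hetero-KO minus WT, at 4 months (pale) and 18 months (dark), for the 13 probes within 200 kb measured on all 4 arrays. Igf2os stands at 1.85 and 2.06, and every other probe lies between −0.61 and 0.28.

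Markers of the tissues that make Igf2 also differed between these pools. All 20 choroid plexus markers were measured on all arrays, and all 20 were lower in hetero-KO at 4 months (median −0.45) and at 18 months (median −0.81). Their summed levels were 189, 155, 226 and 172. The largest differences at 18 months were in F5, a clotting factor gene, at −1.07 and Calml4, a calmodulin-like protein, at −0.99. Of 17 meningeal fibroblast markers, 16 were lower in hetero-KO at 4 months (median −0.28) and 16 were higher at 18 months (median 0.55), with summed levels of 80.7, 69.4, 70.6 and 93.9. The part of either tissue in the Igf2 difference was not tested, and in RNA from whole tissue fewer cells of a type and less RNA per cell cannot be told apart.

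Among the 37 genes, 1 was at least 2-fold higher in hetero-KO at 4 months (0.706% of all genes) and 0 were lower (0.635%). At 18 months 1 was higher (0.529%) and 1 lower (0.616%). Igf2os was the higher gene at both ages and Magel2 the lower one. With limma, 0 of the 37 passed for genotype in either direction, where 3 genes of all passed as higher (0.0104%) and 0 as lower (0.0%). At an unadjusted p under 0.05, 3 were higher and 4 lower, against 5.16% and 6.27% of all genes. The median of the 37 was 0.02 at 4 months and −0.06 at 18 months, beside −0.02 and −0.01 for all genes. The sign of the genotype difference was the same at both ages in 18 of 37 genes (48.6%), beside 61.8% of all genes measured on all arrays.

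**Figure D3:**
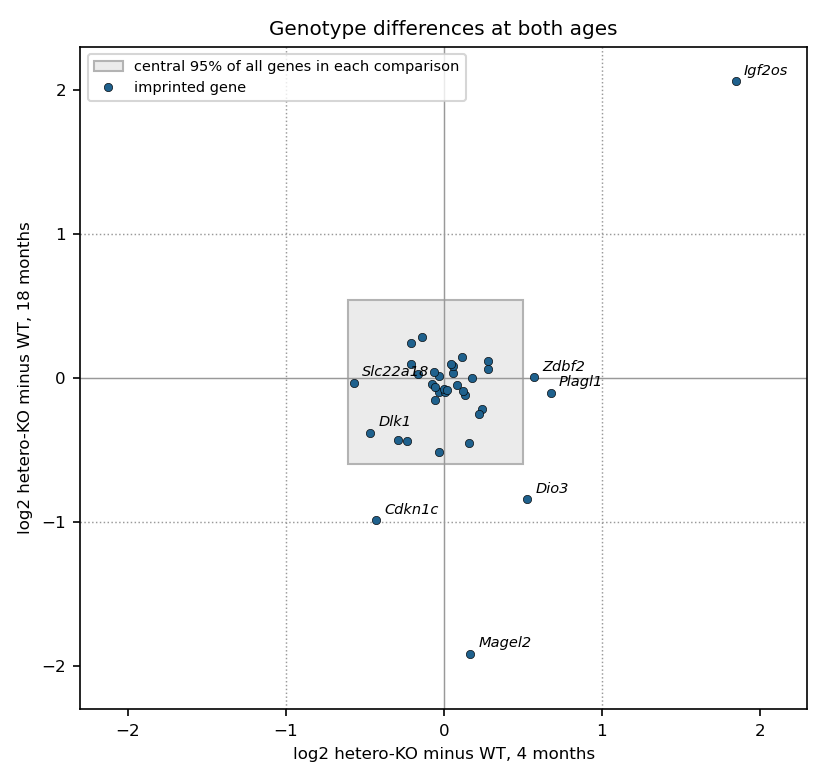
Each point is 1 of the 37 imprinted genes, with log2 hetero-KO minus WT at 4 months on the horizontal axis and at 18 months on the vertical axis; the grey box spans the central 95% of all genes in each comparison and dotted lines mark 2-fold. Igf2os lies high on both axes, Magel2 is low at 18 months alone, and most points lie inside the box.

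The Snrpn-Ube3a locus on chromosome 7 holds the paternal genes Snrpn, Ndn, Magel2, Mkrn3 and Peg12 and the neuronally maternal gene Ube3a. Magel2, which acts with ubiquitin ligases in protein recycling and is prominent in the hypothalamus, was read at chr7:69526370-69526429 (mm9, plus strand). At 4 months the level was 0.179 in WT against 0.201 in hetero-KO, and at 18 months 0.238 against 0.0632. A single array, hetero-KO at 18 months, was low, and the other 3 lay close together. The genotype difference was 0.17 at 4 months and −1.91 (3.77-fold lower) at 18 months, the 26th lowest of 27423 genes. In the authors' deposited table the 18-month difference was 0.0901, with no lower level in hetero-KO. Since the difference depends on 1 array, the limma fit over both ages gave −0.87 ± 0.49 (SE) with an adjusted p of 0.536.

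The neighbours of Magel2 did not show this. Ndn, or necdin, a related protein, had levels of 22.0, 24.0, 21.9 and 20.5. Mkrn3, a ubiquitin ligase known for holding back puberty, had 0.0565, 0.0490, 0.0302 and 0.0323. Peg12, which binds the kinase GSK3, had 0.282, 0.268, 0.311 and 0.302. Of these, Mkrn3 was lower on both 18-month arrays than on both 4-month arrays, with age differences of −0.90 in WT and −0.60 in hetero-KO (limma, −0.75 ± 0.16 SE, adjusted p = 0.0821), while Ndn and Peg12 stayed within 0.23 of 0 in every comparison.

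Snrpn, a splicing protein of neurons, had levels at its brightest probe of 75.04, 71.8, 80.4 and 82.8. That probe has 10 spots on each array, and the SD of log2 signal over the spots was between 0.014 and 0.036. Ube3a, the ubiquitin ligase whose loss causes Angelman syndrome, had 4.44, 4.62, 4.45 and 4.55. Its 3 probes gave genotype differences between −0.04 and 0.06 at both ages.

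Markers of the hypothalamus also differed between these pools. Of 16 listed, 15 were measured on all arrays. In hetero-KO 12 of the 15 were higher at 4 months (median 0.21) and 12 were lower at 18 months (median −0.48). Their summed levels were 2.40, 2.52, 2.93 and 2.40, and Sim1, a transcription factor that marks the hypothalamus, was well above background on no array. Trh, the thyrotropin-releasing hormone, had −1.12 at 18 months. The part of this tissue in the Magel2 value was not tested.

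In the Kcnq1ot1 locus, the noncoding RNA Kcnq1ot1 is made from the paternal copy and silences its neighbours on that copy. Its brightest probe had levels of 18.5, 16.5, 17.7 and 18.1, and its 5 probes gave genotype differences between −0.29 and 0.04. Cdkn1c, the cyclin-dependent kinase inhibitor p57, is expressed from the maternal copy. WT stood at 3.62 and hetero-KO at 2.69 in the younger pair, and WT at 5.38 and hetero-KO at 2.71 in the older pair. Both hetero-KO arrays lay below both WT arrays. The difference was −0.43 at 4 months and −0.99 (1.99-fold lower, just under 2-fold) at 18 months, and −0.71 ± 0.14 (SE; limma adjusted p = 0.263) over both. The choroid plexus markers, lower in hetero-KO at both ages as given above, moved with it, and their part was not tested.

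Slc22a18, a maternally expressed membrane transporter, had levels of 0.240, 0.162, 0.333 and 0.326. Both 18-month arrays lay above both 4-month arrays. The age difference was 0.47 in WT and 1.01 (2.01-fold) in hetero-KO, and 0.74 ± 0.15 (SE; limma adjusted p = 0.0754) over both. A dimmer probe of the gene gave 0.43 and 0.16, and the mean of both probes in hetero-KO was 0.58, under 2-fold. The authors' deposited table gave the opposite direction, −1.02 in WT, −0.78 in hetero-KO and −0.90 over both (limma adjusted p = 0.00384).

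With age, the largest difference of the set was in the Dlk1-Dio3 locus on chromosome 12. Dlk1, a membrane protein related to Notch ligands and expressed from the paternal copy, was read at chr12:110698721-110698781 (mm9, plus strand). In WT the level was 0.247 at 4 months and 0.718 at 18 months, and in hetero-KO it was 0.179 and 0.552. Both 18-month arrays lay above both 4-month arrays, by 1.54 (2.91-fold) in WT and 1.63 (3.09-fold) in hetero-KO. Dlk1 rose by 1.58 ± 0.07 (SE) over both genotypes with a limma adjusted p of 0.0109. A dimmer probe of Dlk1 gave 1.26 in WT and 0.90 in hetero-KO. The call was lost with no filter on dim genes (adjusted p = 0.0903), with the mean of the probes (0.0531), without genotype in the model (0.0563) and without a variance trend (0.287). The adjusted p ranged from 0.0024 to 0.287 over all alternatives, and the direction was the opposite, −1.09, in the authors' deposited table.

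Dio3, the enzyme that inactivates thyroid hormone, lies at the other end of this locus and had levels of 0.0142, 0.0205, 0.0223 and 0.0125. Its genotype difference was 0.53 at 4 months and −0.84 at 18 months, with a spot error of 0.26 and 0.30. The maternal noncoding RNAs between Dlk1 and Dio3 differed little. Meg3 had levels at its brightest probe of 49.8, 49.9, 53.8 and 51.1, and each of its 5 probes lay between −0.20 and 0.11 in all 4 comparisons. Rian, the host of a cluster of small nucleolar RNAs, had 4.00, 4.86, 3.69 and 3.85. Mirg, the host of a cluster of microRNAs, had 3.78, 4.59, 3.57 and 3.87. At these probes Rian and Mirg were highest in hetero-KO at 4 months, by 0.28 each over WT, and had −0.33 and −0.25 with age in hetero-KO. At 4 months the dimmer Rian probe was only 0.06 over WT, and the dimmer Mirg probe 0.31.

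Nnat, or neuronatin, a small paternally expressed membrane protein of neurons, was read on chromosome 2 inside the locus of Blcap. In WT the level was 7.02 at 4 months and 4.90 at 18 months, and in hetero-KO it was 7.93 and 4.89. The age difference was −0.52 in WT and −0.70 in hetero-KO, and both 18-month arrays lay below both 4-month arrays. Nnat fell by 0.61 ± 0.06 (SE) over both genotypes with a limma adjusted p of 0.0404. The call was lost with no filter (adjusted p = 0.147), with all genes taken as the mean of their probes (0.0952), without genotype in the model (0.0521) and without a variance trend (0.319), and the adjusted p ranged from 0.000455 to 0.319 over all alternatives. Blcap, which surrounds it, had levels of 10.8, 11.4, 10.99 and 10.6, and no difference beyond 0.10.

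Dlk1 and Nnat were the members that passed for age, 1 higher (1.15% of all genes) and 1 lower (0.582%). At an unadjusted p under 0.05, 5 members were higher and 11 lower, beside 16.8% and 6.86% of all genes. Of the 501 genes that passed in all, 66.5% were higher, but 31.5% of the 168 that passed after quantile normalization were, so the balance of directions over all genes depends on the scaling. At least 2-fold apart in WT were 1 member that was higher (0.777% of all genes), Dlk1, and 1 that was lower (0.827%), H19. In hetero-KO 2 were higher (1.11%), Dlk1 and Slc22a18, and 1 was lower (1.11%), Magel2, whose age difference was 0.41 in WT and −1.67 in hetero-KO.

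The median age difference of the 37 genes was 0.03 in WT and −0.15 in hetero-KO, beside 0.04 and 0.04 for all genes. In WT its sign turned with quantile normalization, to −0.09, and with the mean of probes and the authors' deposited table, to −0.03 each, and in hetero-KO it stayed below 0, between −0.21 and −0.04, under every alternative tried. In hetero-KO, 26 of the 37 lay below 0, while 59.5% of all genes lay above 0. Listed imprinted genes outside this set did not share this. Of the 50 measured on all arrays, 32 were higher with age in hetero-KO (median 0.07) and 33 in WT (median 0.10). Of the 23 measured genes counted as paternal by their listed allele, which was not read here, 17 were lower with age in hetero-KO (median −0.22) and 13 in WT (median −0.02). Of 13 genes counted as maternal, which include Blcap and Commd1 with a maternal bias in brain, Ube3a, maternal in neurons, and Grb10, paternal in neurons and maternal elsewhere, 9 were lower in hetero-KO (median −0.10) and 4 in WT (median 0.05). Neighbours in a locus are not independent of each other.

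**Figure D4:**
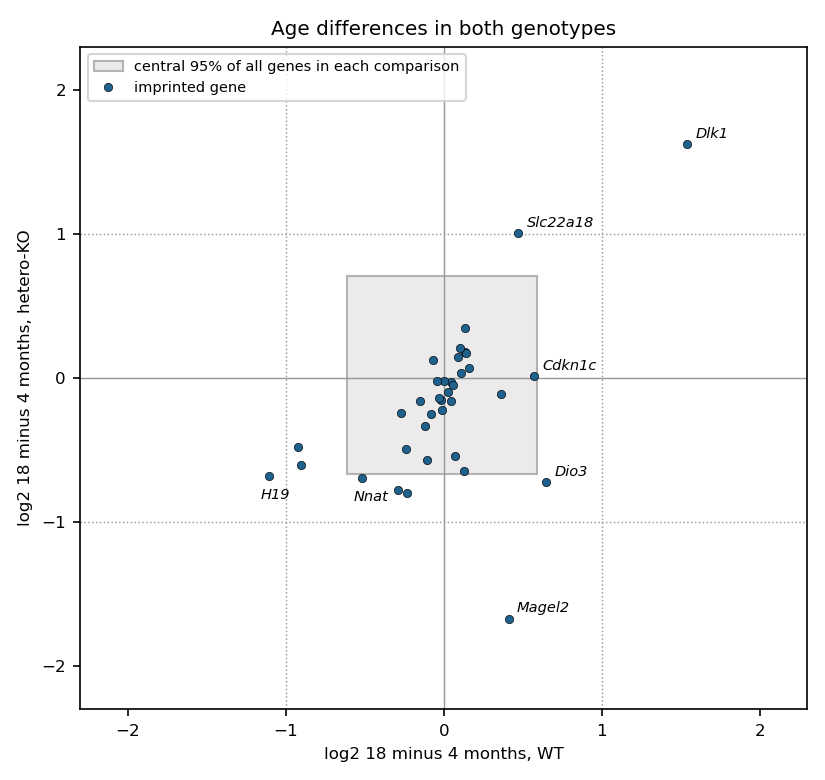
Each point is 1 of the 37 imprinted genes, with the log2 difference of 18 from 4 months in WT on the horizontal axis and in hetero-KO on the vertical axis; the grey box spans the central 95% of all genes and dotted lines mark 2-fold. Dlk1 is high on both axes, H19 and Nnat are low on both, and Magel2 is low in hetero-KO alone.

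Marker lists of neighbouring tissues moved with age too. Of 17 thalamus and habenula markers tested, 12 passed as lower with age, among them Shox2, a transcription factor of the thalamus, at −4.54 and Vipr2, a peptide receptor, at −3.15. Over the 15 measured on all arrays the median was −2.34 in WT and −1.86 in hetero-KO, with summed levels of 42.1, 33.3, 17.3 and 15.1. Chrna3 was well above background on no array. Avp, the vasopressin gene, was the 1 hypothalamus marker that passed, higher by 1.81, and 12 of 15 were higher with age in WT (median 0.48) and 10 in hetero-KO (median 0.14). Of 17 meningeal fibroblast markers, 16 were lower with age in WT (median −0.43) and 14 were higher in hetero-KO (median 0.37), and 1 passed, the collagen gene Col3a1, at −1.41. Choroid plexus markers were higher with age in 19 of 20 in WT (median 0.21) and lower in 12 of 20 in hetero-KO (median −0.12). Of 14 striatum markers, 12 were lower in WT (median −0.25) and 13 in hetero-KO (median −1.05). Of 12 immature neuron and progenitor markers measured on all arrays, 6 were lower with age in WT (median −0.08) and 9 in hetero-KO (median −0.63). From that list, Top2a, an enzyme of dividing cells, fell by 1.52 and Nhlh2, a transcription factor, by 1.06. Of the 14 hippocampal neuron markers, all were higher with age in hetero-KO and 12 in WT, and Lct passed with 0.60. The 12 endothelial markers had medians of −0.30 in WT and 0.05 in hetero-KO, the 10 pericyte markers −0.23 and −0.04, and the 9 markers of amygdala, septum and cortex −0.07 and −0.45, and none of these lists had a gene that passed. Whether tissue makeup has a part in the age differences of Dlk1, Nnat and H19 was not tested.

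The measured genes in the other loci stayed under 2-fold in every comparison at the probe that represents each gene. In the Peg3 locus, Peg3, a zinc finger protein of the paternal copy, had −0.24 with age in WT and −0.50 in hetero-KO (limma, −0.37 ± 0.08 SE, adjusted p = 0.0801), and a second Peg3 probe had −0.46 and −0.66. Usp29, a ubiquitin protease gene that starts near Peg3 and runs the other way, had 0.24 at 4 months and −0.22 at 18 months between genotypes. One dim Usp29 probe had 0.92 at 4 months (level 0.0387 in WT, 0.0730 in hetero-KO), while the other 3 measured lay between −0.20 and 0.24. Zim1, the maternal zinc finger gene beside them, had a dim second probe that the older hetero-KO array did not measure, at least 3.33-fold lower there than in WT; its first probe had −0.25.

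Zdbf2, a paternally expressed gene of chromosome 1, had levels of 0.289, 0.430, 0.246 and 0.247. The hetero-KO array of 4 months stood above the other 3, by 0.57 over WT. Plagl1, a zinc finger regulator of growth genes, had the same shape at its brightest probe, with 3.72, 5.95, 4.08 and 3.80. The 0.68 at that probe was not shared by the other 2 Plagl1 probes, which had −0.30 and −0.29. Striatum markers were also highest on that array: 13 of the 14 measured were higher in hetero-KO at 4 months (median 1.35), with summed levels of 29.1, 60.7, 30.6 and 31.9, and their part in the Zdbf2 and Plagl1 values was not tested.

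Grb10, an adaptor that dampens insulin and IGF1 receptors, was lower in hetero-KO at each of its 3 probes and at both ages, between −0.64 and −0.23. Over both ages the probe with the highest mean level gave −0.34 ± 0.12 (SE; limma adjusted p = 0.429). Mest, an enzyme-like protein of the paternal copy, was lowest in hetero-KO at 18 months at both probes measured on all arrays, by −0.45 and −0.56 from WT. Nap1l5, a nucleosome assembly protein, had −0.27 and −0.24 with age (limma, −0.26 ± 0.04 SE, adjusted p = 0.0587). In the Peg10-Sgce locus, Asb4, a ubiquitin ligase adaptor, had −0.93 in WT and −0.48 in hetero-KO with age (limma adjusted p = 0.0856). The retrotransposon-derived Peg10 had −0.29 and −0.78. Sgce, a sarcoglycan, stayed within 0.10 of 0 at its brighter probe. Its dimmer probe had −0.16 at 4 months and −0.17 at 18 months between genotypes.

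Probes of one gene at different places did not always agree in sign. Gnas, which encodes the stimulatory G protein alpha subunit and several imprinted alternative transcripts, was measured by 8 probes on all arrays. The brightest had levels of 82.8, 81.0, 90.9 and 91.8. A probe at chr2:174154248-174154307 (mm9, plus strand) was unlike the other 7, with 0.524, 0.739, 0.788 and 1.12. Its genotype difference was 0.50 at 4 months and 0.51 at 18 months and its age difference 0.59 and 0.60, while the others lay between −0.11 and 0.13 for genotype and between −0.26 and 0.18 for age. With each probe tested apart, an alternative chosen after seeing the data, this probe passed for age (limma, 0.59 ± 0.06 SE, adjusted p = 0.0424).

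The same fit over single probes also called 2 others that do not represent their gene. The dimmer Igf2 probe fell with age by 0.72 ± 0.07 (SE; limma adjusted p = 0.0489), while the brighter one had −0.02 in WT and −0.15 in hetero-KO. Airn, the paternal noncoding RNA that silences Igf2r on its own copy, fell by 0.60 ± 0.06 (SE; limma adjusted p = 0.0494) at chr17:12944784-12944843 (mm9, plus strand), where its levels were 0.423, 0.487, 0.282 and 0.316. At chr17:13008078-13008137 (mm9, plus strand) Airn had 0.747, 0.720, 0.672 and 0.645, a smaller step of −0.15 and −0.16. The remaining, dimmer Airn probe had age differences of −0.40 in WT and −0.21 in hetero-KO. Igf2r, the receptor that carries IGF2 to lysosomes, had 1.56, 1.502, 1.75 and 1.57, with no difference beyond 0.17. Of 18 genes with more than 1 probe measured on all arrays, the probes had the same sign in 9 for genotype at 4 months, 10 at 18 months, 8 for age in WT and 12 in hetero-KO.

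**Figure D5:**
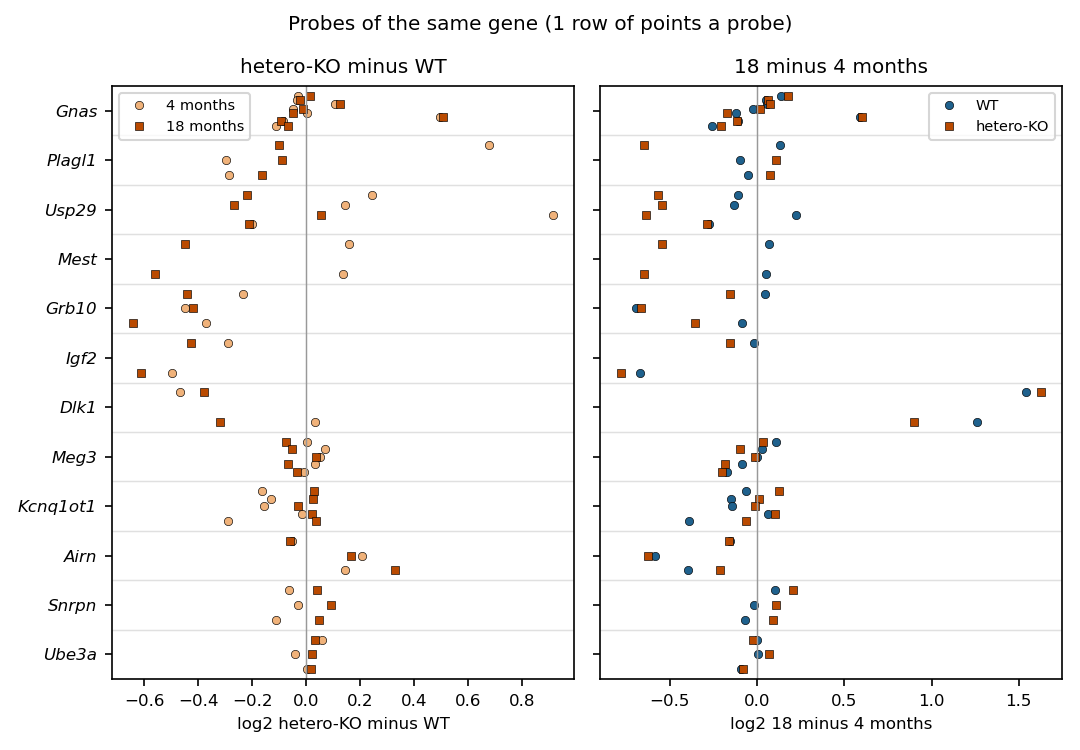
For 12 imprinted genes with several probes, each row of points is 1 probe measured on all 4 arrays. The left panel gives log2 hetero-KO minus WT (4 and 18 months) and the right panel log2 18 minus 4 months (WT and hetero-KO): 1 Gnas probe stands to the right of the others in both panels, and 1 Plagl1 probe and 1 Usp29 probe stand apart at 4 months.

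The remaining genes differed little between arrays. Zrsr1, a splicing factor gene, its host Commd1 at the brighter probe, the noncoding RNA Peg13 and Impact, a regulator of translation, each stayed within 0.15 of 0 in all 4 comparisons. A dim second probe of Commd1 had levels of 0.104, 0.0568, 0.0548 and 0.0656, high on the WT array of 4 months alone.

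Imprinted genes outside this set, the proteins that maintain imprints and the partners of IGF2 were looked at from lists. Of 54 further imprinted genes, 50 were measured on all arrays; 0 passed for genotype, and with age Ddc, which makes dopamine, rose by 0.45 and Osbpl5, a lipid transfer protein of the Kcnq1ot1 locus, fell by 0.47. Slc22a2, an organic cation transporter, had −0.79 at 4 months and 0.96 at 18 months between genotypes and 1.71 with age in hetero-KO (levels 0.0340, 0.0197, 0.0332 and 0.0646). Zfp264 was measured on the hetero-KO array of 18 months alone. Htr2a, a serotonin receptor, had 0.76 and 0.85 between genotypes at the 2 ages (limma, 0.80 ± 0.09 SE, adjusted p = 0.142). Of 25 imprint regulators, 23 were measured on all arrays and 0 passed for genotype or age; their median lay between −0.03 and 0.01 in the 4 comparisons, and among those 23 the largest difference was −0.60 for Hells, a chromatin remodeller, with age in hetero-KO. Of the 20 IGF signalling genes tested, 0 passed for genotype and 1 for age, Htra1, a protease that cuts IGF-binding proteins, which rose by 0.31. Pappa2, another such protease, had −1.40 with age in hetero-KO and −0.29 in WT.

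Promoters from 250 bases before to 50 bases after the start site, from RefSeq (GRCm38.p6), were found for 32 of the 40 genes, 49 promoters in all. None was found for Igf2os, H19, Cdkn1c, Peg10, Sgce, Peg13, Rtl1 or Impact, so the search below does not cover these genes. The core sequence that Zbtb18 is known to bind, ACATCTG, was searched on both strands; it contains an E-box, CANNTG. It occurred in 1 of the 49 promoters (2.04%), of Asb4, beside 4.43% of all 32851 promoters of that length. The median number of CpG in the 300 bases was 14 for the set and 7 for all promoters.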

How the data were processed

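Per the labels, Cy3-labelled cRNA was made from 200 ng of RNA pooled from 3 samples a group and hybridised to 4 one-colour Agilent arrays. Per the file headers, the deposited intensity values come from Agilent Feature Extraction 11.5.1.1 with background and spatial trend removed, on mouse build mm9, and the well-above-background marks are its own. The authors' deposited table holds a linear ratio to each array's 75th percentile; no scanner file gives its 18-month columns, and it served only as an alternative. Log2 processed intensity minus the 75th percentile over non-control spots was computed. Genes measured on at least 2 of 4 arrays were tested by limma 3.58.1 (R 4.3.3; lmFit, eBayes with trend). Symbols were updated through RefSeq accessions for 32994 probes, of which 1535 changed. The alternatives were normexp background (offset 50), quantile normalization, no filter, a filter on all 4 arrays, the mean of a gene's probes, the authors' table, no variance trend, the other factor left out and each probe apart. The limma fit for genotype was also run on simulated data with normal noise. Full values were given for members at least 2-fold apart in a pair of arrays or past the threshold, and for members of their loci; from other lists, for at most 4 genes a direction that passed and at most 2 with the largest differences. The members and lists were chosen with earlier results of these data known.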

Additional observations from a re-analysis of the deposited data

Results flagged for a closer look

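In 3 genes a difference pointed in opposite directions at the 2 ages or in the 2 genotypes, each time beyond its spot error. Opposite signs without that limit were more common, as the counts of shared signs above show. With 1 array a group these contrasts have no residual degree of freedom, and the differences between them were not tested. Magel2 was 0.41 higher with age in WT and had −1.67 in hetero-KO, so that the age difference in hetero-KO minus that in WT was −2.08. Dio3 had a genotype difference of 0.53 at 4 months and −0.84 at 18 months, and an age difference of 0.65 in WT and −0.72 in hetero-KO; either pair gives −1.37. Usp29 had 0.24 at 4 months and −0.22 at 18 months between genotypes, a step of −0.46, with a spot error of 0.20 for each. A second Usp29 probe had 0.14 and −0.27. Dimmer Usp29 probes did not turn in sign, with 0.92 and 0.05 at A_55_P2603236 and −0.20 and −0.21 at A_55_P2741286.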

How the results depend on the processing

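No paired analysis was possible because each group holds 1 array. Counts of members at least 2-fold apart between genotypes moved by 1 at most. At 4 months, 1 was lower with no filter. At 18 months, 2 were higher with no filter and 0 in the authors' table, and 2 were lower with quantile normalization, no filter and the mean of probes and 0 in the authors' table. With age in WT, 0 were higher in the authors' table, and 0 were lower with normexp and with the mean of probes, 2 with no filter and 4 in the authors' table. In hetero-KO, 1 was higher with normexp, the mean of probes and the authors' table, and 4 were lower in the authors' table. For genotype by limma, 1 member passed as higher (Igf2os) with normexp and with the filter on all 4 arrays. Of all genes, 10 and 6 passed as higher and lower with normexp, 8 and 2 with the filter on all 4 arrays and 1 and 7 in the authors' table; 1 was higher with the mean of probes and without age in the model, and 0 with no filter and no variance trend. For age, 2 members passed as higher and 3 as lower with normexp and with each probe apart, 12 and 11 in the authors' table, and 0 in either direction with no filter, the mean of probes, no variance trend or genotype left out. Of all genes, 1353 were higher and 338 lower with normexp, 53 higher with quantile normalization, 612 higher with the filter on all 4 arrays, 4 and 10 with the mean of probes, 4586 and 5252 in the authors' table, 50 and 64 without genotype, 176 higher with each probe apart, and 0 and 0 with no filter or no trend. The authors' table turned the sign of 8 values that were at least 2-fold, or passed here or with normexp: the age difference of Dlk1 (−1.09 over both genotypes, −1.34 in WT, −0.83 in hetero-KO), Slc22a18 (−0.90 over both, −0.78 in hetero-KO), Nap1l5 (0.53) and Peg3 (0.28), and the 18-month genotype difference of Magel2 (0.0901). Among the 5 genes that reached 2-fold it also turned 6 smaller differences, the 18-month genotype difference of Dlk1 (0.04) and H19 (−0.27) and the age difference of Igf2os (−0.95 in WT, −2.18 in hetero-KO), Magel2 (−0.37 in WT) and Slc22a18 (−1.02 in WT). The median genotype difference of the members at 18 months was 0.02 there. The cause was not tested. With 1 array a group, the number of arrays limits the precision, and dim probes (H19, Dio3, Zim1) carry larger spot errors.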
